A study of Homo sapiens with 40 samples.

Results

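Added UTY loss in UTX-null cells was examined in undifferentiated SEES3 cells, an established human embryonic stem cell line, by setting the 2 libraries labelled DKO against the 2 labelled UTXKO. These are 4 of the 40 libraries of the series and were chosen by their labels. The study title concerns redundancy between UTY and UTX in pluripotent cells, and the contrast between DKO and UTXKO holds UTX loss constant while UTY loss is added. DKO cells lack UTX and UTY per the series' design text, and UTXKO cells lack UTX alone. The 2 libraries of wild-type SEES3 (WT) entered the fit for the spread between replicates and carry no weight in the contrast. For UTY loss where UTX is present, 2 libraries labelled UTYKO were set against 2 libraries of their own control, again in undifferentiated SEES3. For the same genotype contrast in other cultures, the 2 libraries labelled DKO were set against the 2 labelled XKO in each of the cultures labelled Endo, Meso and Ecto, which the labels also give as SEES3. No label says how the alleles were made, whether DKO cells were derived from the UTXKO line, or whether the 2 libraries of a group are separate clones or cultures. Genotype and clone therefore cannot be told apart, and p-values measure only the spread between these libraries.

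UTX is the product of the X-linked gene KDM6A. It is a demethylase for H3K27, a mark of silenced chromatin, and a subunit of the MLL3 and MLL4 complexes, which methylate histone H3 at enhancers. UTY is its paralog on the Y chromosome and has little demethylase activity in vitro, while part of the function of UTX in mouse development does not need that activity. In human pluripotent cells, the Nodal and Activin branch of TGF-beta signalling sustains NANOG and restrains neural fate.

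DKO libraries held 9001668 and 7874682 counts, and UTXKO libraries held 6985279 and 6302569 counts. Levels of undifferentiated cells are given as CPM, the count scaled to a common library total over all genes, and they compare libraries, not genes, because gene length is not removed. Within a group the Pearson correlation of log2 CPM across genes was 0.995 in DKO and 0.992 in UTXKO. The pluripotent label was checked against marker genes. LIN28A, an RNA-binding protein of embryonic stem cells, had 1710 and 1727 CPM in DKO libraries and 1697 and 1656 CPM in UTXKO libraries. POU5F1 and SOX2, transcription factors of the pluripotency core, exceeded 300 CPM in all 4 libraries. ZFP42, a further pluripotency marker, was at 0.333 and 0.127 CPM in DKO libraries and at 0 and 0.159 CPM in UTXKO libraries, at or near 0 in both groups.

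The targeted transcripts were counted in DKO cells. KDM6A (ENSG00000147050.16, chrX:44873177-45112602, plus strand) had 78.2 and 82.3 CPM in DKO libraries, against 88.2 and 106 CPM in UTXKO libraries. The libraries did not overlap, and the log2 difference was -0.30 ± 0.09 (SE; edgeR quasi-likelihood test with Benjamini-Hochberg adjustment, adjusted p = 0.0094). UTY (chrY:13248379-13480673, minus strand) had 57.0 and 58.4 CPM in DKO libraries, against 32.6 and 30.5 CPM in UTXKO libraries, so its transcript was higher in the cells labelled as lacking it, by 0.84 ± 0.10 on the log2 scale (SE; edgeR, adjusted p = 1.7e-07). Where UTX is intact, UTY had 59.7 and 51.0 CPM in UTYKO libraries, against 34.5 and 24.5 CPM in their controls. Gene counts do not read the edited bases, so loss of either protein is not checked here. KDM6B, the third H3K27 demethylase of the family, had 34.9 and 34.2 CPM in DKO libraries and 22.8 and 18.7 CPM in UTXKO libraries, a log2 difference of 0.70 (edgeR, adjusted p = 6.8e-05). Of the 12 KDM6 and MLL3/MLL4 complex genes tested, 5 were higher and 2 lower in DKO cells, with a median log2 difference of 0.07. These calls include UTY, KDM6B and KDM6A, given above. Over all genes tested, 18.3% were higher and 16.6% lower. NCOA6, a subunit of the MLL3 and MLL4 complexes, had 52.3 and 48.8 CPM in DKO libraries and 26.3 and 19.8 CPM in UTXKO libraries.

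The promoters of the paralogs are shown because their transcripts moved in opposite directions. Each window spans 250 bases before to 50 bases after the RefSeq start site (GRCh38.p14), read 5′ to 3′ on the gene's strand. The longest run of bases that both windows share, 11 bases, is in capitals. It begins 28 bases upstream of the start site in UTY (chrY:13479984-13480283, minus strand) and 108 bases upstream in KDM6A (chrX:44872938-44873237, plus strand).
UTY: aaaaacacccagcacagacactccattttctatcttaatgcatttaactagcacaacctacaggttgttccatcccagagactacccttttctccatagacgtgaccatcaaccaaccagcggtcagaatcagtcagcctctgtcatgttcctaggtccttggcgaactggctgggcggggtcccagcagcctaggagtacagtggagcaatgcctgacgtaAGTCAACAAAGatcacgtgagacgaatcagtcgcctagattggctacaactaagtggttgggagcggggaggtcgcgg
KDM6A: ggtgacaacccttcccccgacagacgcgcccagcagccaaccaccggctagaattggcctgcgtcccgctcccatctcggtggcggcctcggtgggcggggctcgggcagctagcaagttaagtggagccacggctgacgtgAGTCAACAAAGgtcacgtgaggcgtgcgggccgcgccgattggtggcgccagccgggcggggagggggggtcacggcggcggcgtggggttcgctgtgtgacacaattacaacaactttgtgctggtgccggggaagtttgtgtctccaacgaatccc

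DKO and UTXKO cells differed broadly in their transcriptomes. Of 14482 genes tested, 2647 were higher in DKO cells (18.3%) and 2405 lower (16.6%), 34.9% together (edgeR, adjusted p under 0.05). At least 2-fold changes were fewer, with 801 genes higher (5.53%) and 456 lower (3.15%). The median log2 difference over all genes was 0.00. Median differences of the autosomes and the X chromosome lay between -0.06 and 0.06. DESeq2 called 3186 genes and a fit that included the UTYKO libraries and their controls called 3160. All genes these shared with the 5052 had the same direction, which is no separate support, because the same DKO and UTXKO libraries enter each fit.

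**Figure D1:**
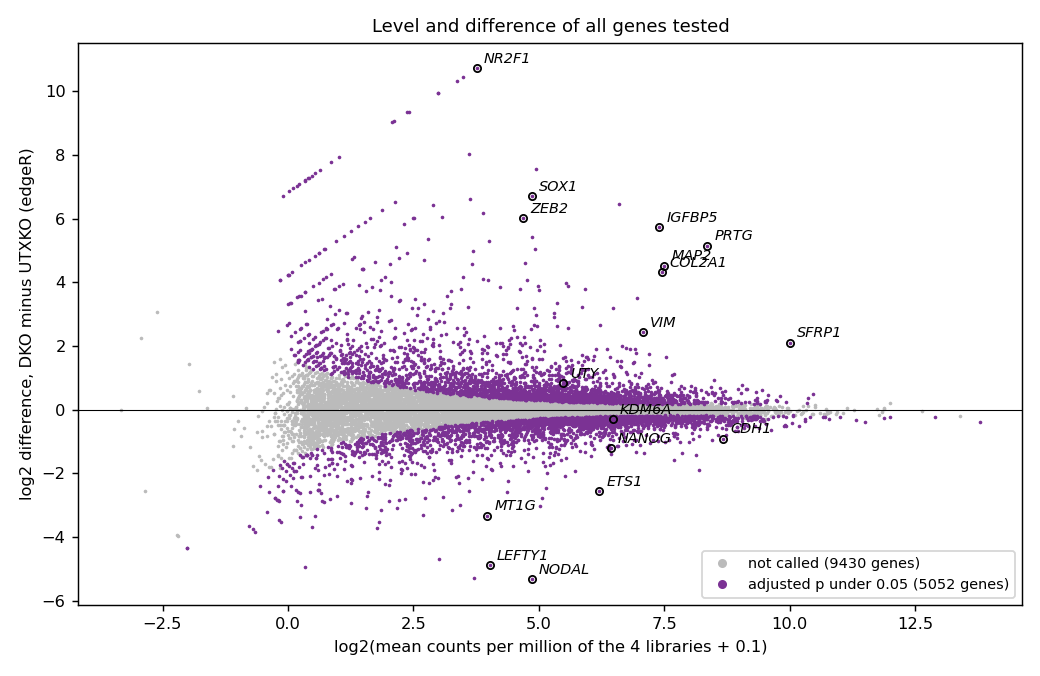
Log2 difference of DKO minus UTXKO cells (vertical axis, edgeR) by level (horizontal axis, log2 of the mean CPM of the 4 libraries + 0.1), 1 point per gene tested. Purple points are the 5052 genes that passed the test, grey points the others, and rings mark named genes, with NODAL at -5.33, CDH1 at -0.91, VIM at 2.42 and SOX1 at 6.70.

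Genes without a count in UTXKO cells were among the largest rises. NR2F1, an orphan nuclear receptor of neural and mesenchymal progenitors (chr5:93583224-93594615), had 24.7 and 29.2 CPM in DKO libraries and 0 counts in both UTXKO libraries, at least 119-fold higher when 3 counts are assumed over the UTXKO group. Its relative NR2F2 had 9.998 and 10.8 CPM in DKO libraries and 0 counts in both UTXKO libraries, at least 45.9-fold higher. The matrix genes LUM (lumican) and COL3A1 (type III collagen) were counted in both DKO libraries and had 0 counts in both UTXKO libraries. LUM had 19.8 and 25.0 CPM in DKO libraries (at least 98.4-fold higher), and COL3A1 had 19.9 and 21.1 CPM (at least 90.5-fold higher). Transcription factors VAX1 of the ventral forebrain and TFAP2B of the neural crest were likewise at 0 counts in UTXKO cells, and at 14.2 and 17.3 CPM (VAX1) and 11.3 and 9.14 CPM (TFAP2B) in DKO libraries. So were the secreted WNT agonist RSPO3 at 8.44 and 8.51 CPM and the ligand BMP5 at 7.9985 and 8.51 CPM in DKO libraries. PAX8, a paired-box factor, had 26.9 and 21.7 CPM in DKO libraries and 1 count in the UTXKO group, a ratio of 325 with an exact 95% interval of 58.0 to 12875 that covers counting error only. GREM1, a secreted BMP antagonist, had 61.2 and 61.0 CPM in DKO libraries, against 0.286 and 0.317 CPM in UTXKO libraries, a log2 difference of 7.56 ± 0.25 (SE; edgeR, adjusted p = 1.2e-18).

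Nodal signalling genes held the largest falls. NODAL, the ligand (ENSG00000156574.10, chr10:70432315-70447951, minus strand), had 2.00 and 0.762 CPM in DKO libraries, against 55.5 and 57.4 CPM in UTXKO libraries. The libraries of the groups were far apart, and the log2 difference was -5.33 ± 0.19 (SE; edgeR, adjusted p = 7.9e-18). LEFTY1, a secreted Nodal antagonist, had 1.00 and 1.14 CPM in DKO libraries and 32.6 and 29.7 CPM in UTXKO libraries, a log2 difference of -4.88. LEFTY2, its near-identical neighbour, had 2.33 and 2.54 CPM in DKO libraries and 20.2 and 17.8 CPM in UTXKO libraries, and how reads were divided between these copies is not given, so both values are uncertain. MIXL1, a homeobox gene of the primitive streak, had 1.22 and 1.14 CPM in DKO libraries and 13.03 and 9.996 CPM in UTXKO libraries. Among 13 Nodal antagonists and targets tested, 10 fell and 1 rose, with a median log2 difference of -1.19, beside 0.00 over all genes. The feedback inhibitors SMAD7 (-0.95), SKIL (-0.94) and PMEPA1 (-1.35) fell. FST, which binds Activin, was the member that rose, with 80.9 and 84.2 CPM in DKO libraries and 14.0 and 13.17 CPM in UTXKO libraries. The ligands and receptors moved both ways, 6 of 16 higher and 8 lower, with a median of -0.19. TDGF1, the Nodal co-receptor, had 171 and 168 CPM in DKO libraries, against 331 and 346 CPM in UTXKO libraries. The nuclear partner FOXH1 fell by 0.70 on the log2 scale, while the receptors TGFBR1 and ACVR1B rose by 0.72 and 0.34.

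Pluripotency genes fell in part. NANOG had 54.0 and 51.6 CPM in DKO libraries, against 116 and 124 CPM in UTXKO libraries, a log2 difference of -1.21 (edgeR, adjusted p = 6.3e-12). POU5F1 had 310 and 313 CPM in DKO libraries, against 538 and 532 CPM in UTXKO libraries, a log2 difference of -0.81 (edgeR, adjusted p = 4.2e-09). SOX2, which also marks neural progenitors, was higher, with 481 and 473 CPM in DKO libraries and 341 and 385 CPM in UTXKO libraries. Of 26 core pluripotency genes, 14 fell and 4 rose, with a median of -0.23, beside 16.6% lower and 18.3% higher over all genes. DPPA2, a chromatin factor of early embryos, and the TGF-beta family ligand GDF3 fell by 1.96 and 1.52 on the log2 scale. Of 8 naive-state genes tested, 5 fell and none rose (median -1.18), among them KLF4 (-1.38) and TFCP2L1 (-1.42). Of 14 primed-state genes, 10 rose and 3 fell (median 0.58), and this list holds OTX2, ZIC2 and CDH2, which neural cells also express.

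Genes of epithelial junctions fell together while regulators of epithelial to mesenchymal transition rose. Of 23 junction genes tested, 18 fell and none rose, with a median log2 difference of -0.78. CDH1, which encodes E-cadherin (chr16:68737225-68835548), had 284 and 288 CPM in DKO libraries, against 530 and 523 CPM in UTXKO libraries, a log2 difference of -0.91 ± 0.07 (SE; edgeR, adjusted p = 2.8e-11). Tight-junction claudins CLDN7 (-1.46) and CLDN4 (-2.14), the membrane protease ST14 (-1.22) and the adhesion molecule EPCAM (-0.82) fell. TJP1, the scaffold ZO-1, had a difference of 0.00 and did not pass the test. Simple-epithelium and surface-ectoderm genes fell in 8 of 11 cases and rose in 2 (median -0.80), with the keratins KRT8 and KRT18 at -0.81 and -0.82 and the epithelial factor GRHL2 at -0.80. Of 16 transition genes tested, 12 rose and 3 fell, with a median of 1.58. TWIST1, TWIST2 and PRRX1 of this list, tested or not, had 0 counts in both UTXKO libraries and could not fall. ZEB2, a repressor of E-cadherin (chr2:144364364-144524583), had 50.5 and 50.2 CPM in DKO libraries, against 0.859 and 0.635 CPM in UTXKO libraries, a log2 difference of 6.005 ± 0.228 (SE; edgeR, adjusted p = 7.4e-17). ZEB1, its paralog, had 19.7 and 22.5 CPM in DKO libraries and 1.15 and 1.11 CPM in UTXKO libraries. VIM, an intermediate filament protein, had 225 and 231 CPM in DKO libraries and 39.4 and 44.0 CPM in UTXKO libraries. CDH2, which encodes N-cadherin, had 284 and 286 CPM in DKO libraries and 132 and 124 CPM in UTXKO libraries. SNAI2 rose by 3.85 on the log2 scale, SNAI1 had 0.19 and did not pass the test, and the matrix and adhesion genes FN1 (-0.45) and ITGB1 (-0.38) fell.

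**Figure D2:**
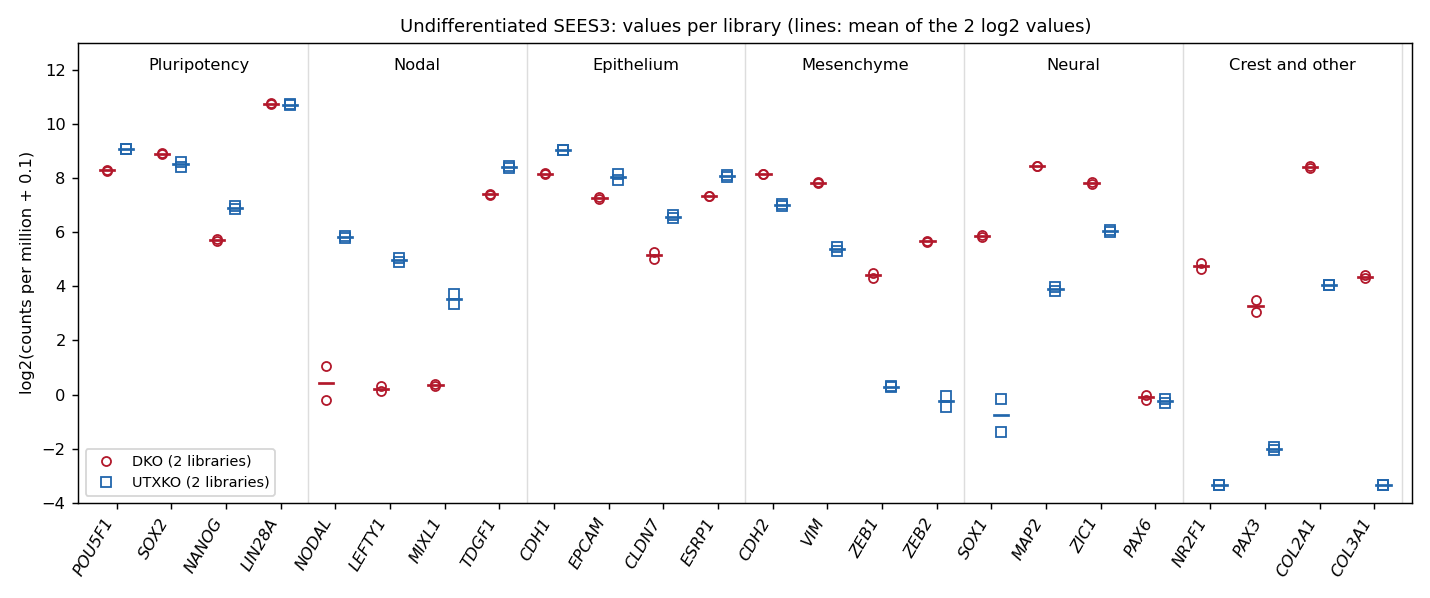
Level of selected genes in each library on a log2(CPM + 0.1) axis, grouped by role, with circles for the 2 DKO libraries left of squares for the 2 UTXKO libraries and a line at the mean of the 2 log2 values. The groups lie apart for NODAL (2.00 and 0.762 CPM in DKO, 55.5 and 57.4 CPM in UTXKO libraries) and for ZEB2 (50.5 and 50.2 CPM in DKO, 0.859 and 0.635 CPM in UTXKO libraries), while LIN28A and PAX6 lie at nearly the same height in both.

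ZEB and SNAI factors bind the E-box CACCTG, so the promoters of 2 junction genes with this letter run are shown, with each CACCTG or its reverse complement CAGGTG in capitals (GRCh38.p14, plus strand, same window as above). RAB25, a small GTPase of epithelial trafficking (chr1:156060910-156061209), has 2 such runs, and CRB3, a polarity protein (chr19:6464021-6464320), has 5.
RAB25: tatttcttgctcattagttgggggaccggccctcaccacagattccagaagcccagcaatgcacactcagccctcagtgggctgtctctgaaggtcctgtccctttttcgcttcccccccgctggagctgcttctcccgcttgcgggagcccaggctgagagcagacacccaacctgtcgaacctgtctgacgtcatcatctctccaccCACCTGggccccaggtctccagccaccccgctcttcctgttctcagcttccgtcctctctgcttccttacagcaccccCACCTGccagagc
CRB3: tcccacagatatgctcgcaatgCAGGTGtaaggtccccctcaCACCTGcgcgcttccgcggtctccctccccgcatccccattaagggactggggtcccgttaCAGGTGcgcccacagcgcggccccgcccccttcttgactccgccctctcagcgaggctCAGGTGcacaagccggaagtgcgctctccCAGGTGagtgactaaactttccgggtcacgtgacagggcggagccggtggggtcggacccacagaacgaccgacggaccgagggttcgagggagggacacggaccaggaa
RAB25 had 18.9965 and 23.4 CPM in DKO libraries, against 38.7 and 36.3 CPM in UTXKO libraries (log2 difference -0.86, edgeR, adjusted p = 1.8e-06). CRB3 had 5.78 and 4.95 CPM in DKO libraries, against 9.31 and 9.84 CPM in UTXKO libraries (log2 difference -0.86, edgeR, adjusted p = 0.0021). The run occurs on either strand in 20.6% of the 27305 RefSeq promoters of this length. A comparison of the junction list with that share is void, because 14 of its 23 genes have a promoter in the table. Of these 14 promoters 7 hold the run, and the 2 shown are a selection. The promoters of CLDN4 and CLDN7, which fell further than RAB25 and CRB3, do not hold it. TJP1 and OCLN, whose levels did not pass the test, hold the run as well. A match is a description of letters, not of binding.

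Neural progenitor genes rose widely. Of 24 neural ectoderm genes tested, 22 rose and none fell, with a median log2 difference of 1.90, beside 0.00 over all genes. A gene at 0 counts in both UTXKO libraries enters the test only through other libraries and can then only rise. Such genes were OTX1, NR2F1 and NR2F2 in this list, and 7 of 17 members, tested or not, of the forebrain list below. Also at 0 counts in both UTXKO libraries were EN1 and WNT1 of the midbrain, hindbrain and caudal list. TFAP2B, TWIST1 and DLX5 of the crest and border list were at 0 counts there as well. SOX1, a factor of the early neural plate (chr13:112067647-112070488), had 56.0 and 59.2 CPM in DKO libraries, against 0.286 and 0.793 CPM in UTXKO libraries, a log2 difference of 6.70 ± 0.24 (SE; edgeR, adjusted p = 8.9e-18). ZIC1, a zinc finger factor of neural progenitors, had 221 and 232 CPM in DKO libraries and 67.6 and 64.1 CPM in UTXKO libraries. MEIS2 (6.18), POU3F2 (6.01), DACH1 (5.31) and FABP7 (3.86) were further rises on the log2 scale. PAX6, a neural factor, stayed below 1 CPM in all 4 libraries and did not pass the test. Forebrain and eye field genes rose in 10 of 11 cases (median 2.07), with SIX3 at 89.4 and 90.8 CPM in DKO libraries and 35.2 and 37.8 CPM in UTXKO libraries. FEZF1, a forebrain zinc finger factor, was the member that fell (-1.03). Midbrain, hindbrain and caudal neural genes rose in 10 of 14 cases and fell in 1 (median 1.87), with EN2 at 10.998 and 11.05 CPM in DKO libraries and 0 and 0.317 CPM in UTXKO libraries. Among 16 neural crest and border genes, 11 rose and 4 fell (median 1.79). PAX3, a factor of the neural border, had 8.22 and 11.05 CPM in DKO libraries and 0.143 and 0.159 CPM in UTXKO libraries. ETS1, a factor of migrating crest and of other lineages, fell, with 21.3 and 22.1 CPM in DKO libraries and 125 and 126 CPM in UTXKO libraries. FOXD3, of crest and pluripotent cells, fell by 0.37. Of 12 neuron genes tested, 5 rose and 3 fell, with a median of -0.06. The summed level of the list was 874 and 856 CPM in DKO libraries and 553 and 548 CPM in UTXKO libraries. This sum does not show a rise across the list. MAP2, a neuron marker given in the closing section, rose by about as many CPM as the sum. The axonal gene GAP43 fell by 1.12 on the log2 scale. In bulk libraries, fewer cells of a type and less RNA per cell cannot be told apart.

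Signalling lists outside Nodal also held changes, given beside 18.3% higher and 16.6% lower over all genes tested. WNT ligands, receptors and antagonists rose in 17 of 27 cases and fell in 2, with a median of 1.09. Of 37 members of this list, tested or not, 7 had 0 counts in both UTXKO libraries, RSPO3 among them, and could not fall. SFRP1, a secreted WNT antagonist, had 1621 and 1730 CPM in DKO libraries, against 389 and 373 CPM in UTXKO libraries. The antagonist FRZB (3.76), the receptor FZD7 (1.64), the ligand WNT4 (5.37) and the transcription factor LEF1 (2.79) rose, whereas WNT3 fell by 1.60 and AXIN2, a common feedback target, had 0.06 and did not pass the test. BMP ligands, antagonists and ID targets rose in 12 of 22 cases and fell in 4 (median 0.57). BMP5 and GDF6 of this list had 0 counts in both UTXKO libraries and likewise could not fall. ID4, an inhibitor of basic helix-loop-helix factors, rose by 3.04, ID2 by 1.09 and ID3 by 1.03, while ID1 fell by 1.01 and the pseudoreceptor BAMBI by 1.79. FGF and ERK feedback genes were split, 10 higher and 8 lower of 22 (median 0.15), with the ERK phosphatases DUSP6 at 1.15 and DUSP5 at -1.64. Notch genes rose in 9 of 15 cases and fell in 1 (median 0.39), with HES1, a target repressor, at 72.9 and 69.2 CPM in DKO libraries and 29.8 and 28.7 CPM in UTXKO libraries. Retinoic acid genes were split, 4 higher and 4 lower of 11 (median 0.17).

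Markers of other cell types were followed because a culture can hold more than 1 type. Their calls stand beside 18.3% higher and 16.6% lower over all genes tested. Fibroblast and stroma genes rose in 8 of 14 cases and fell in 2 (median 1.15), and their summed level was 363 and 374 CPM in DKO libraries and 294 and 278 CPM in UTXKO libraries. COL3A1, LUM and FAP were at 0 in UTXKO libraries. COL3A1 and LUM, also at 0 counts in both WT libraries, entered the test only through DKO libraries and could only rise. PDGFRB rose by 3.10, COL1A1 and COL1A2 did not pass the test, and THY1 fell by 0.47. Collagens rose in 13 of 23 cases and fell in 3 (median 0.41). Blood and endothelial genes rose in 6 of 10 cases and fell in 3 (median 1.10), with summed levels of 250 and 257 CPM in DKO libraries and 262 and 240 CPM in UTXKO libraries, and with GATA1 and PTPRC at 0 in both groups. TAL1, a factor of blood progenitors and some neurons, had 42.7 and 43.3 CPM in DKO libraries, against 7.87 and 9.52 CPM in UTXKO libraries, while the endothelial receptor KDR fell by 0.73. Primitive streak genes fell in 4 of 6 cases and none rose (median -1.11). Definitive endoderm genes gave 2 rises and 1 fall of 5 (median 0.04, but -0.66 without the filter on low counts), with SOX17 at 0 in both groups. None of 5 lateral plate and cardiac genes passed the test (median -0.40). Trophoblast and amnion genes gave 3 rises and 2 falls of 6 (median -0.17), with CGA and CGB5 at 0 in both groups. The part of any admixed cell type in the results was not tested.

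Among metabolic and stress genes, glycolysis and hypoxia genes fell in 14 of 25 cases and none rose (median -0.32), including LDHA, lactate dehydrogenase (-0.67), and the mitophagy receptor BNIP3 (-0.91). Targets of the stress factor ATF4 fell in 11 of 17 cases and none rose (median -0.64). SLC7A5, an amino acid transporter, had 124 and 136 CPM in DKO libraries, against 325 and 337 CPM in UTXKO libraries. Targets of p53 fell in 10 of 22 cases and rose in 4 (median -0.26). Interferon and MHC class I genes fell in 6 of 16 cases and rose in 1 (median -0.28). Replication and mitosis genes were split, 5 higher and 8 lower of 26 (median -0.07), and 3 of 20 cholesterol synthesis genes rose with none lower (median 0.06). Genes of PRC2, the complex that writes H3K27 methylation, gave 3 rises and 1 fall of 12 (median 0.06), with the catalytic subunit EZH2 at 0.44 and the cofactor EPOP at 0.73. Imprinted genes gave 6 rises and 2 falls of 17 (median 0.21), and clustered protocadherins 8 rises and 4 falls of 30 (median 0.25). The shares over all genes tested were 18.3% higher and 16.6% lower. Lists near these shares, such as cholesterol synthesis genes and protocadherins, are not read as results about their members. Of 39 HOX genes 3 were tested, and all 3 fell from low levels. Y genes with X partners gave 4 rises and 2 falls of 12 (median 0.17), and their X partners likewise 4 rises and 2 falls of 12 (median 0.10).

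**Figure D3:**
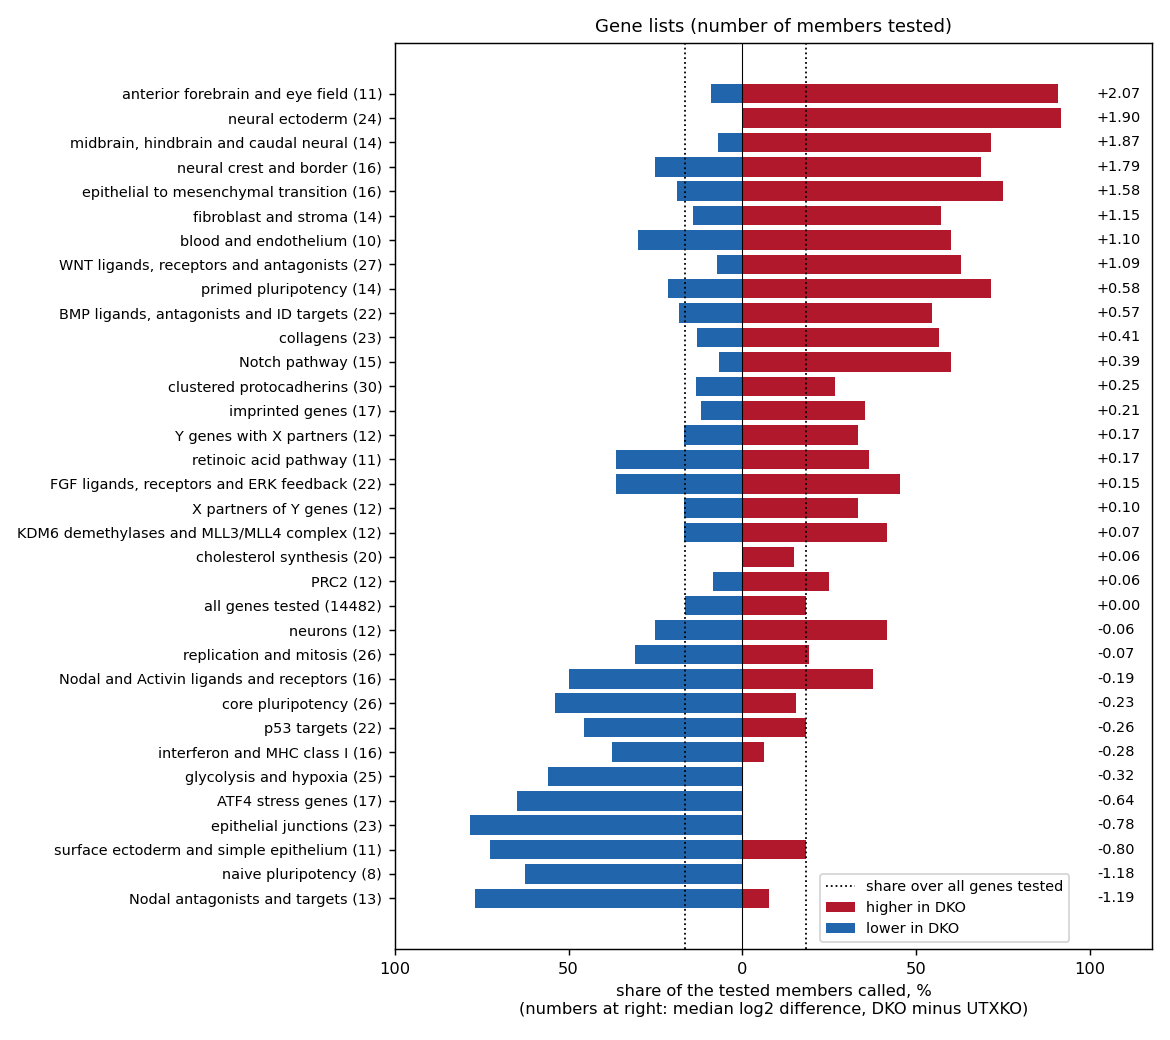
Share of each drawn gene list's tested members (number in brackets) that passed the edgeR test in DKO against UTXKO cells, in percent, with higher genes as red bars to the right and lower genes as blue bars to the left of 0. The lists with the fewest tested members (HOX, primitive streak, definitive endoderm, lateral plate and trophoblast) are not drawn. Dotted lines give the shares over all genes tested (18.3% higher and 16.6% lower). The numbers at the right are median log2 differences, among the drawn lists from 2.07 for forebrain genes to -1.19 for Nodal antagonists and targets.

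The contrast for UTY loss without UTX was tested against that with UTX as a difference of differences, DKO against UTXKO minus UTYKO against its control, in 1 edgeR fit of 10 libraries. The contrasts share no library. Of 15191 genes tested, 1024 differed in the positive direction (6.74%) and 861 in the negative (5.67%), 12.4% together. In that fit UTYKO cells differed from their control in 213 genes, 1.4% of those tested (71 higher, 0.467%, and 142 lower, 0.935%), and DKO from UTXKO cells in 3160 (20.8%), 1771 of them higher (11.7%) and 1389 lower (9.14%). The count for UTYKO cells rests on single libraries, with 105 genes without UTYKO replicate 1, 52 without UTYKO replicate 2, 1962 without control replicate 1 and 363 without control replicate 2, and it was 89 in a fit of these 4 libraries alone. The rises shared 21 genes, 1.19% of those in DKO and 29.6% of those in UTYKO cells, and the falls shared 22, 1.58% of those in DKO and 15.5% of those in UTYKO cells. A further 21 genes higher in UTYKO cells were lower in DKO cells, and 29 genes lower in UTYKO cells were higher in DKO cells. Across all 15191 genes the log2 differences of the contrasts had a Pearson correlation of -0.03 and a Spearman correlation of -0.05, given as a description because genes are not independent.

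NODAL moved in opposite directions. Its level was 81.1 and 88.3 CPM in UTYKO libraries and 51.8 and 55.4 CPM in their controls, a rise of 0.66 ± 0.14 on the log2 scale (SE; edgeR, adjusted p = 0.010), which did not pass in the 4 libraries of UTYKO and its control alone (edgeR, adjusted p = 0.12) or without UTYKO replicate 2 (0.22). The difference from the fall in DKO cells was -5.99 ± 0.27 (SE; edgeR, adjusted p = 9.8e-13). MIXL1 likewise rose in UTYKO cells, with 19.9 and 17.6 CPM in UTYKO libraries and 9.03 and 10.7 CPM in controls, and its difference between the contrasts was -4.20. EBF2, a helix-loop-helix factor, had 1.00 and 0.127 CPM in DKO libraries and 16.5 and 14.4 CPM in UTXKO libraries, but 21.6 and 19.05 CPM in UTYKO libraries and 12.5 and 9.75 CPM in controls. The rises of MIXL1 and EBF2 in UTYKO cells likewise did not pass in those 4 libraries alone or without either UTYKO library (edgeR, adjusted p between 0.065 and 0.15). For LEFTY1 the UTYKO libraries had 42.9 and 53.6 CPM and the controls 38.3 and 40.7 CPM, which did not pass the test (edgeR, adjusted p = 0.53). CDH1 did not pass the test in UTYKO cells (0.14), and its difference between the contrasts was -1.05 ± 0.13 (SE; edgeR, adjusted p = 6.4e-06). ZEB2 stayed below 1 CPM in UTYKO and control libraries, and its difference between the contrasts was 6.47 ± 0.76 (SE; edgeR, adjusted p = 4.6e-06). UTY itself rose by 0.91 in UTYKO cells, and its difference between the contrasts was -0.08 ± 0.21 (SE; edgeR, adjusted p = 0.88). The control libraries were the least alike of these groups, and without control replicate 1 the test called 4024 genes and without control replicate 2 it called 2918. Leaving out a DKO or UTXKO library gave 1181, 1195, 1256 and 1146 calls without DKO replicate 1, DKO replicate 2, UTXKO replicate 1 and UTXKO replicate 2.

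**Figure D4:**
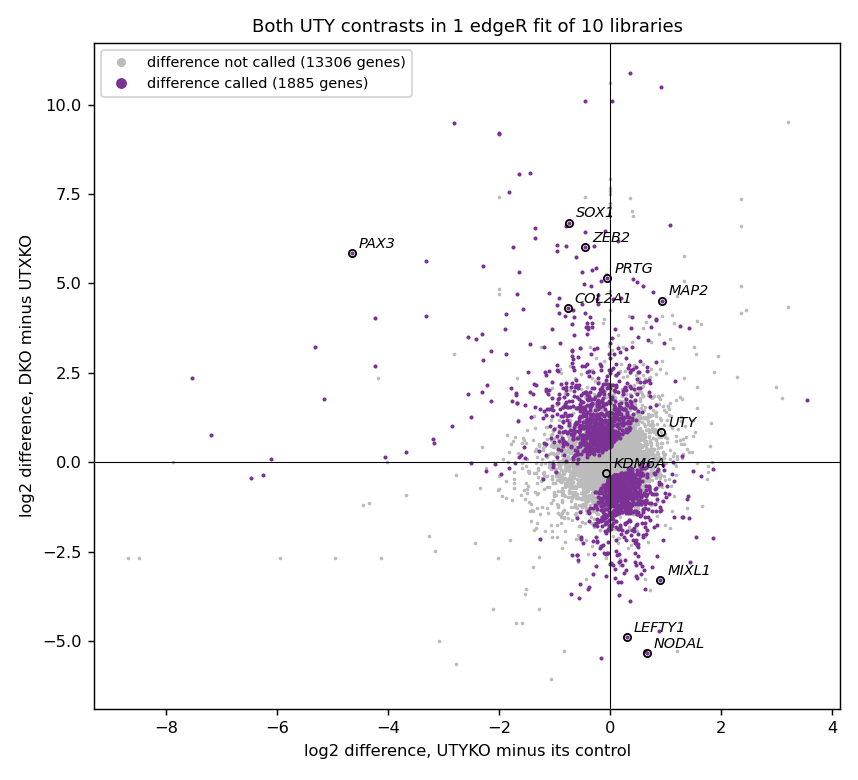
Log2 difference of DKO minus UTXKO cells (vertical axis) by that of UTYKO cells minus their control (horizontal axis), 1 point per gene in 1 edgeR fit of 10 libraries, with the 1885 genes whose difference between the contrasts passed the test in purple. NODAL lies at 0.66 on the horizontal axis and below -5 on the vertical one, and UTY lies above 0 on both.

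In differentiated cultures the contrast of DKO against XKO was tested with limma on log2(TPM + 1), where TPM is a relative abundance corrected for transcript length and folds of low genes are understated. Endo cultures differed in 1712 of 15660 genes (10.9%), with 938 higher (5.99%) and 774 lower (4.94%). Meso cultures differed in 3411 of 15125 genes (22.6%), with 2444 higher (16.2%) and 967 lower (6.39%) around an all-gene median of 0.42. Ecto cultures differed in 765 of 15433 genes (4.96%), with 346 higher (2.24%) and 419 lower (2.71%). Without 1 of the 4 libraries these counts were 665 to 848 in Endo, 465 to 1975 in Meso and 198 to 281 in Ecto cultures, so every library of the contrast decides them by over 1.5 times.

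Genes at least 2-fold higher in undifferentiated DKO cells were more often higher than lower in the Endo and Meso DKO cultures. Of 739 such genes with a value in Endo cultures, 237 were higher and 16 lower, with a median of 1.12 beside 0.05 over all genes. In Meso cultures 257 of 681 were higher and 27 lower, with a median of 1.22 beside 0.42. In Ecto cultures 82 of 776 were higher and 66 lower, with a median of 0.34 beside 0.06. Of the genes at least 2-fold lower, 116 of 380 were lower and 15 higher in Endo cultures (median -1.05), 48 of 282 lower and 18 higher in Meso cultures (median -0.31), and 9 of 272 lower and 7 higher in Ecto cultures (median 0.00).

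In Endo cultures Nodal and junction genes were lower in DKO. NODAL had 39.1 and 28.3 TPM in DKO cultures, against 309 and 333 TPM in XKO cultures, a log2 difference of -3.23 ± 0.15 (SE; limma, adjusted p = 4.0e-05). LEFTY1 had 80.0 and 57.2 TPM in DKO cultures, against 531 and 473 TPM in XKO cultures. MIXL1 had 598 and 706 TPM in DKO cultures, against 2747 and 2803 TPM in XKO cultures. CDH1 had 1.92 and 4.05 TPM in DKO cultures, against 358 and 391 TPM in XKO cultures, a log2 difference of -6.61 ± 0.26 (SE; limma, adjusted p = 2.0e-05). Of 22 junction genes tested in Endo cultures, 16 fell and none rose (median -2.18). Definitive endoderm genes fell in 5 of 15 cases and rose in 2 (median -0.60), and primitive streak genes fell in 8 of 13 cases and rose in 2 (median -1.47). Neural ectoderm genes rose in 15 of 27 cases and fell in 3 (median 2.75). SOX1 had 236 and 252 TPM in Endo DKO cultures, against 2.98 and 1.02 TPM in XKO cultures. POU3F2, a neural POU factor, had 192 and 194 TPM in DKO cultures and was listed at 0 in both XKO cultures.

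Meso cultures shared the neural rise, with 14 of 24 neural ectoderm genes higher and none lower (median 2.68, beside 0.42 over all genes). ZIC1 had 416 and 430 TPM in Meso DKO cultures, against 7.44 and 7.78 TPM in XKO cultures. Cardiac and lateral plate genes fell in 6 of 12 cases and none rose (median -1.76), and HOX genes fell in 13 of 31 cases and rose in 1 (median -0.64). CDH1 was listed at 0 in all 4 Meso cultures.

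Ecto cultures differed from the undifferentiated pattern in several lists. In the forebrain list 8 of 14 genes fell and 1 rose (median -2.53). Medians of the crest (-0.31), transition (-0.11) and WNT (-0.23) lists were also below 0, beside 0.06 over all genes. The forebrain list had a negative median in Meso cultures too, at -0.75 over 7 genes, beside 0.42 over all genes. OTX2, a homeobox factor of forebrain and midbrain, had 29.9 and 33.7 TPM in Ecto DKO cultures, against 215 and 231 TPM in XKO cultures, although its count was higher in undifferentiated DKO cells. SIX3 had 42.6 and 36.1 TPM in Ecto DKO cultures, against 284 and 296 TPM in XKO cultures. Neural ectoderm genes went both ways, 8 higher and 10 lower of 27 (median 0.41). SOX1 had 435 and 361 TPM in Ecto DKO cultures, against 127 and 93.2 TPM in XKO cultures, and NR2F1 had 479 and 437 TPM in DKO cultures, against 60.9 and 43.9 TPM in XKO cultures. COL3A1 had 530 and 344 TPM in Ecto DKO cultures, against 0 and 0.757 TPM in XKO cultures. In Meso cultures COL3A1 was lower in DKO, at 12.2 and 6.16 TPM, against 21.6 and 25.3 TPM in XKO. Other large rises of undifferentiated cells were reversed in Ecto cultures. GREM1 had 1.63 and 1.84 TPM in Ecto DKO cultures, against 61.5 and 54.0 TPM in XKO cultures. PAX8 had 5.23 and 10.3 TPM in Ecto DKO cultures, against 35.6 and 34.0 TPM in XKO cultures. Neuron genes rose in 6 of 16 cases and fell in 1 (median 1.00), and midbrain, hindbrain and caudal genes rose in 5 of 17 cases and fell in 2 (median 0.63). The changes of sign of list medians between undifferentiated cells and these cultures were not tested, because the tables were normalized separately.

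**Figure D5:**
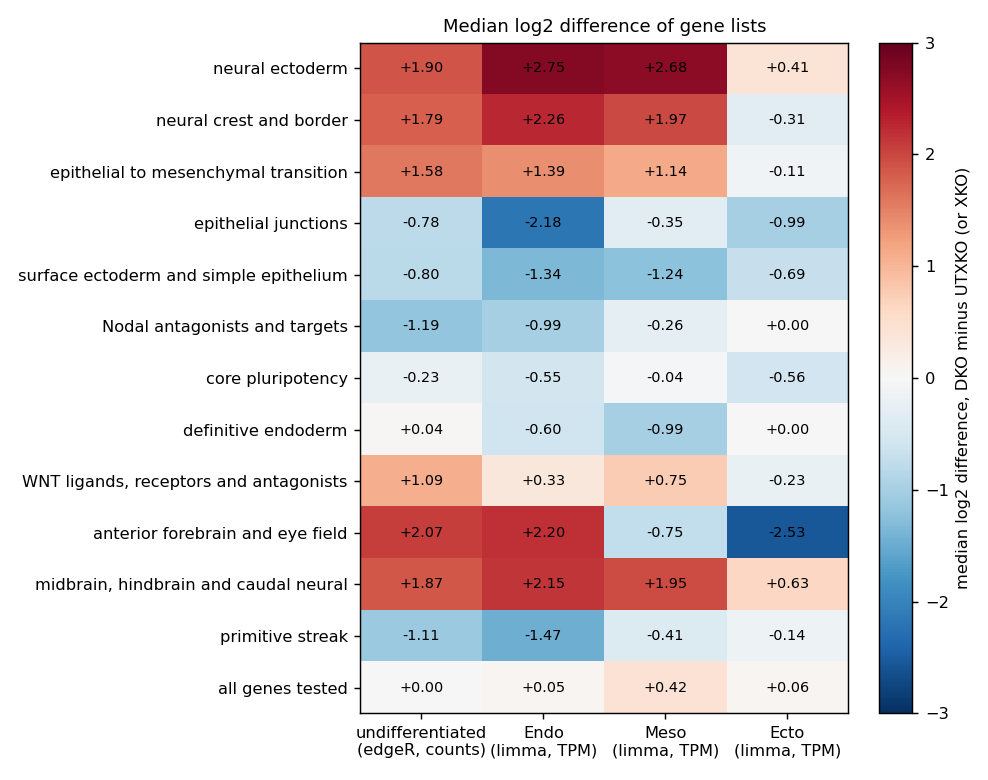
Median log2 difference of gene lists (down the page) in undifferentiated cells (DKO minus UTXKO, edgeR on counts) and in Endo, Meso and Ecto cultures (DKO minus XKO, limma on TPM), red above and blue below 0, with the median of all genes tested in the bottom line. The forebrain list is at 2.07 in undifferentiated cells and at -2.53 in Ecto cultures, and junction genes are at -0.78 in undifferentiated cells and at -2.18 in Endo cultures.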

How the data were processed

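RNA was measured by directional poly(A) sequencing of SEES3 libraries, per the labels' protocols. For undifferentiated cells the authors deposited whole-number read counts per gene for 60651 entries, and for the Endo, Meso and Ecto cultures they deposited TPM values for 16742 genes each. STAR, RSEM, featureCounts and edgeR, and the builds GRCh38 and hg38, are named in the submitters' processing notes without roles or versions. The annotation release of the counting, not given in the sources used here, and its strand setting are unknown. Overlapping and near-identical genes are therefore uncertain. Groups were taken from sample titles, and 18 columns of values that matched no sample by name were not used.

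The count tables of DKO and UTXKO, which hold the same WT libraries, were joined by gene identifier. Symbols were found for 99.7% of identifiers and positions come from GENCODE release 29. Counts were tested in R 4.3.3 with edgeR 4.0.16 (filterByExpr by group, TMM factors, quasi-likelihood test, all 6 libraries, Benjamini-Hochberg adjustment over all genes tested, threshold 0.05). TMM factors lay between 0.980 and 1.01, and the common coefficient of variation between replicates was 0.0501. The comparison with UTYKO used 10 libraries. TPM values, after addition of 1 and log2 transformation, were tested with limma's trend method (3.58.1). Genes entered with at least 1 TPM in at least 2 libraries of the culture. Printed CPM is the count scaled to the library total, without TMM factors. Folds against groups at 0 use 3 counts over the group, and exact binomial intervals (95%) cover counting error only.

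No 2 libraries of a group agreed within sampling noise: the chi-square per degree of freedom was 1.62 in DKO, 2.51 in UTXKO, 2.86 in UTYKO and 15.0 in their controls. The pipeline was tested on simulated data. Alternatives were DESeq2 1.42.0, other filters, scalings, library sets and a replicate block. The comparison, its members and the gene lists were chosen with earlier results of these data known. Named genes are the targeted genes, the 12 largest rises and 12 largest falls with a mean of at least 5 CPM in the higher group and libraries that do not overlap, genes at 0 in one group and at least 5 CPM in the other, called and abundant members of the gene lists, and the 6 largest differences in each direction between the UTY contrasts. Some genes that meet this rule are not reported here. Members of the lists named outside this rule, and genes in the closing section, were chosen after their values were seen.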

Additional observations from a re-analysis of the deposited data

Results flagged for a closer look

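The difference between DKO and UTXKO cells was not the same as that between UTYKO cells and their control in 1885 of 15191 genes, by the edgeR test of the difference itself, and in 1146 to 4024 genes when 1 library was left out. Genotype and clone cannot be told apart in either contrast. Nor can the presence of UTX be told apart from other differences between the sets of libraries.

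Among the largest positive differences between the contrasts were TFAP2B (12.30 on the log2 scale), RSPO3 (11.21), BMP5 (11.18), MMRN1 (10.55), NR2F1 (10.53) and PAX3 (10.49). All but PAX3 have 0 counts in both UTXKO libraries, and PAX3, TFAP2B, RSPO3 and BMP5 have 0 counts in both UTYKO libraries. All these fitted sizes therefore depend on the prior count and are not bounds. PAX3, a factor of the neural border, had 0.645 and 0.134 CPM in the controls of UTYKO. MMRN1, a secreted matrix protein, had 15.0 and 16.3 CPM in DKO libraries and 0 counts in both UTXKO libraries.

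Among the largest negative differences were those of NODAL (-5.99), EBF2 (-5.59), LEFTY1 (-5.18), MIXL1 (-4.20) and FEZF1-AS1 (-3.98). NODAL, EBF2, MIXL1 and FEZF1-AS1 fell in DKO against UTXKO cells and rose in UTYKO cells against their control, and each of these rises missed the threshold without UTYKO replicate 2. FEZF1-AS1, a transcript antisense to FEZF1, had 2.999 and 2.67 CPM in DKO libraries and 12.7 and 11.6 CPM in UTXKO libraries. It had 3.46 and 3.02 CPM in UTYKO libraries and 1.18 and 0.668 CPM in controls. The strand setting of the counting is not given, so reads of FEZF1 and its antisense transcript cannot be told apart.

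In Ecto cultures the median of the forebrain and eye field list was -2.53 and that of the primed pluripotency list -0.35, both opposite in sign to undifferentiated cells. These differences between cultures were not tested.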

How the results depend on the processing

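In the comparisons of undifferentiated cells, no named gene followed that passed the test, as reported or under the alternative, changed direction. Named genes were not followed under the alternatives in Endo, Meso and Ecto cultures. The direction of named genes that passed in neither was not followed. Medians near 0 changed sign when libraries were scaled by totals alone on chromosomes 1 (0.0295), 6 (0.027), 8 (0.0097), 10 (0.0214), 15 (0.0029) and 21 (0.0008), and that of the definitive endoderm list was -0.66 without the filter on low counts. In DKO against UTXKO cells the count of genes that passed moved from 5052 to 3186 with DESeq2 and to 3160 in the fit of 10 libraries, and the cause was not tested. It was 4782 to 5140 with other filters, scalings or the 4 libraries alone, and 3468 to 5178 without 1 library. The test of the difference between the UTY contrasts gave 1418 to 1885 genes with other tools, filters or scalings and 1146 to 4024 without 1 library. The replicate numbers are shared by the groups, but with 2 numbers they do not establish pairs: replicate differences correlated across 11342 genes at 0.15 for DKO and UTXKO, 0.47 for UTYKO and its control, 0.21 for WT and UTYKO, 0.12 for WT and that control, and -0.03 to 0.05 for the other pairs of groups. With a replicate block 5793 genes (4 libraries) and 5429 (6 libraries) passed in DKO against UTXKO cells, 2160 in the difference between the UTY contrasts, and 281 (10 libraries) and 376 (4 libraries) in UTYKO cells against their control. For this last comparison the alternatives were chosen after seeing the data: 213 genes moved to 89 in its 4 libraries alone and to 52 to 1962 without 1 library. No paired analysis was possible because of missing replicate numbers in the Endo, Meso and Ecto columns. There, the counts without 1 library were 665 to 848 in Endo, 465 to 1975 in Meso and 198 to 281 in Ecto cultures, with the lone sample assumed to vary like the other groups. A pseudocount of 0.1 gave 1449, 2798 and 568 genes in Endo, Meso and Ecto cultures. Of 263 named genes, 16 lost their call with DESeq2 and 22 in the fit of 10 libraries. Of 63 list and chromosome medians, 28 others moved by more than the spread between replicates when libraries were scaled by totals alone and 29 others without the filter on low counts. Depth limits calls among genes with few counts.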

Other observations

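Cell adhesion and guidance families, chosen after their values were seen and so given as values without support, also differed between DKO and UTXKO cells. Shares over all genes tested were 18.3% higher and 16.6% lower. Of 12 classical and type II cadherins tested, 9 rose and 2 fell (median log2 difference 1.28), and CDH1 was among the falls. CDH6, a cadherin of neural and renal progenitors, rose by 3.80. Eph receptors gave 7 rises and 1 fall of 11 (median 0.69), and their ephrin ligands 5 rises and 1 fall of 8 (median 0.51), with EFNB1 at 1.90. Metallothioneins, small metal-binding proteins with near-identical copies, fell in 6 of 6 cases (median -1.13). SOX factors gave 9 rises and 2 falls of 16 (median 0.44), including SOX5 (3.22) and SOX6 (2.69).

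The gene with the smallest p was PRTG, which encodes protogenin, an immunoglobulin-family receptor of the early neural tube in mouse. It had 653 and 619 CPM in DKO libraries and 18.5 and 16.7 CPM in UTXKO libraries. MAP2, a microtubule protein used as a neuron marker, had 345 and 349 CPM in DKO libraries and 15.5 and 14.1 CPM in UTXKO libraries. COL2A1, the type II collagen of cartilage, had 329 and 344 CPM in DKO libraries and 16.5 and 16.7 CPM in UTXKO libraries. In Ecto cultures NNAT, an imprinted gene of developing brain, had 7.25 and 12.3 TPM in DKO cultures, against 4852 and 4782 TPM in XKO cultures. The log2 difference was -8.85 (limma, adjusted p = 5.7e-06). NNAT was also lower in Endo DKO cultures, at 8.76 and 3.7 TPM, against 225 and 213 TPM in XKO cultures. In Meso cultures it had 0 and 8.95 TPM in DKO, against 353 and 377 TPM in XKO cultures.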
